A study of Mus musculus with 12 samples.

Results

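The comparison described here was made within macrophages that had all received Wnt3a, and asked how the transcriptome of cells given Wnt3a alone differed from that of cells given Wnt3a with IL-4. Its samples were obtained from 6 of the 12 deposited columns of raw counts, those labelled Wnt3a and Wnt3a+IL4 in 3 mice, because the former column was never below the latter of the same mouse and never above 2 times it (0 of 48526 genes outside these bounds in any mouse). Columns related in this way were not treated as separate cultures. For each mouse and gene, the Wnt3a count minus the Wnt3a+IL4 count was taken as the difference, and the Wnt3a+IL4 count minus that difference as the remainder, which gave 3 differences and 3 remainders paired by mouse. The labels leave unsaid which of these parts came from cells given Wnt3a alone and which from cells that also received IL-4, and it was not inferred from expression. Every change below is therefore given as remainder relative to difference. Of the 23413 genes with at least 1 count in the 12 samples, 21448 had a count in a difference or a remainder, and 12421 had enough counts to be tested.

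The cells were bone marrow-derived macrophages (BMDMs), which grow out of bone marrow under the growth factor M-CSF and are cultures rather than tissue macrophages. Marrow came from 3 female C57Bl/6J mice, and cells were used on day 7. Cultures of each mouse were left untreated or received 100 ng/mL Wnt3a, 100 pg/mL IL-4 or both for 16 hr, and each group held 3 samples from separate mice. The 4 groups share their strain, sex and growth medium. The sample labels give no treatment time for untreated cells, and the study describes them as kept in medium alone for 16 hr. Untreated and IL-4-treated samples, whose columns were counted separately, are given beside the parts as the cytokine response without Wnt3a.

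IL-4 binds a receptor built on IL-4Rα, and receptor-bound JAK kinases then phosphorylate STAT6, which moves to the nucleus and activates its target genes. In mouse macrophages these targets include the arginine-degrading enzyme arginase 1, lectin receptors that bind sugars, and chemokines that attract T helper 2 cells and other leukocytes. Wnt3a acts through Frizzled receptors and their co-receptors LRP5 and LRP6, which stabilises β-catenin and lets it activate genes with TCF and LEF proteins, among them the feedback inhibitor Axin2.

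Differences totalled between 14171994 and 17453377 counts and remainders between 15707213 and 16998867, so depth was alike. Levels are given as CPM, counts scaled to the library total. On log2 CPM, the remainder and the difference of the same mouse lay 48.7 to 62.9 apart (Euclidean distance over the 12421 genes), differences of separate mice 34.5 to 46.7 apart, and remainders of separate mice 35.6 to 52.0 apart. Mouse 2 stood apart in how its ratio of remainder over difference related to base composition, and a ratio cannot tell which of its parts carried the trend. In mouse 1 the remainder over difference ratio rose with the GC content of the transcript (Spearman's rho across 12392 genes 0.54), in mouse 3 it rose less (0.27), and in mouse 2 it fell (-0.27). The plot of the ratio by GC content shows this per mouse. The part of base composition in single genes was not tested. For the number of genes called and for some lists, counts with each sample's GC trend removed are given below.

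**Figure D1:**
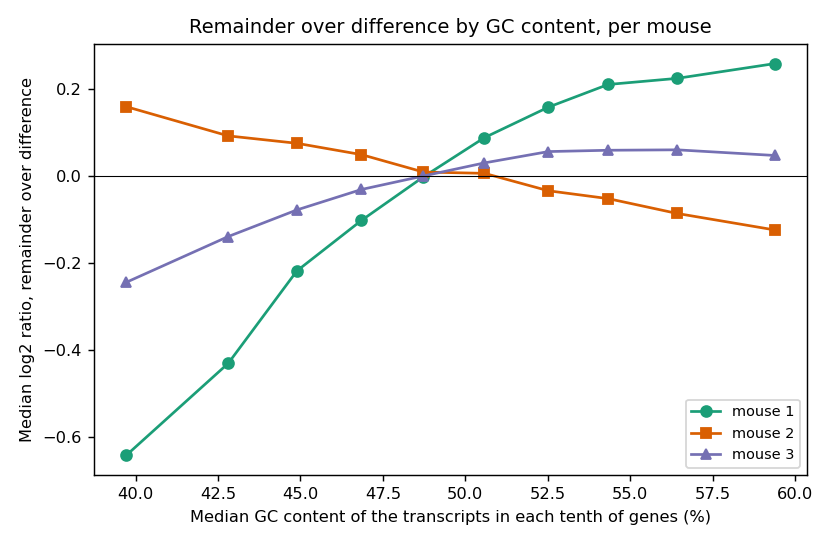
Median log2 ratio of remainder over difference (vertical axis) in 10 groups of like size of the 12392 genes with a known transcript, ordered by the median GC content of the transcript in percent (horizontal axis), with 1 line for each mouse. In the group with the least GC the median was -0.64 in mouse 1, 0.16 in mouse 2 and -0.24 in mouse 3, and in the group with the most GC it was 0.26, -0.12 and 0.05.

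Macrophage markers were high in all 6 parts: Adgre1, which encodes F4/80, had 42094 to 52852 counts, and Csf1r, the receptor for M-CSF, had 68043 to 83502. The summed level of 10 macrophage markers was 58585 to 68836 CPM in the differences and 57792 to 58234 CPM in the remainders, with Cd14, Fcgr1 and Cd163 called lower in the remainder. Markers of other cell types were low. Sums of markers cover only the members with enough counts to be tested. For neutrophils these were 8 of 12, at 103 to 148 CPM in the differences and 73.9 to 97.8 CPM in the remainders. Of them 1 was called (Mmp8, lower in the remainder), and the untested Ly6g had 3 counts or fewer in each part. For 3 of 8 dendritic cell markers the sums were 2.54 to 6.98 and 8.08 to 20.8 CPM, with 1 called higher (Ccr7). The untested Xcr1, Clec9a and Siglech reached no more than 11 counts in any part. Sums of 6 of 12 stromal and endothelial markers were 22.0 to 34.2 and 27.4 to 43.8 CPM, with 1 called higher (Pecam1). The untested Pdgfra was at 0 counts throughout. The 1 of 10 lymphocyte markers that was tested, Cd79b, had 3.03 to 3.36 and 3.48 to 3.56 CPM. Markers of mast cells, basophils and eosinophils (2 of 10) summed to 3.09 to 3.34 and 2.67 to 4.07 CPM. Those of erythroid cells and megakaryocytes (3 of 10), nearly all of it Pf4, summed to 46.3 to 84.8 and 54.9 to 113 CPM. Of these 3 lists, each of 10 markers, 0 members were called by edgeR, and Cd3g, Mcpt8 and Epx were at 0 counts in every part. What part other cells had in the results was not tested, and in bulk RNA fewer cells of a type and less RNA per cell cannot be told apart.

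Across the 12421 genes, 556 differed between remainder and difference (4.48%), with 308 higher in the remainder (2.48%) and 248 lower (2%) at an adjusted p under 0.05 in edgeR's quasi-likelihood test with the mouse as a block. All 556 moved the same way in 3 of 3 mice, on the same values that gave the calls, and the share over all genes is not given here. The median log2 change was 0.82 among the genes called higher and -0.61 among those called lower, and over all genes tested it was 0.01. A change of at least 1 on the log2 scale was seen in 118 of the genes called higher and 51 of those called lower. The per-mouse ratios of all genes tested correlated across genes at 0.23 for mouse 1 with 2, 0.51 for 1 with 3 and 0.43 for 2 with 3, values that share their libraries' depth and base composition.

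The number called depended on single libraries. It was 313 without mouse 1, 1216 without mouse 2 and 91 without mouse 3. Leaving out the remainder alone gave 308, 1693 and 261 genes for mouse 1, 2 and 3, and leaving out the difference alone gave 289, 233 and 285. The direction of the calls varied with GC content. Among genes of up to 43.9% GC, 31 were called higher and 71 lower. Above 55.4% GC, 61 were called higher and 21 lower. The part of GC content in this was not tested. With the GC trends removed, an alternative chosen after seeing the data, 1040 genes were called, 416 higher and 624 lower, so that 40.0% were then higher against 55.4% before. Testing all genes with at least 1 count gave 1316 calls, of which 40.7% were higher. Without the remainder of mouse 2, 622 were higher and 1071 lower, and 534 of the 556 genes were still called. Among fits without a mouse or a part, the largest share was lost without mouse 3, where 91 of the 556 were still called. No called gene changed direction under any of these settings.

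**Figure D2:**
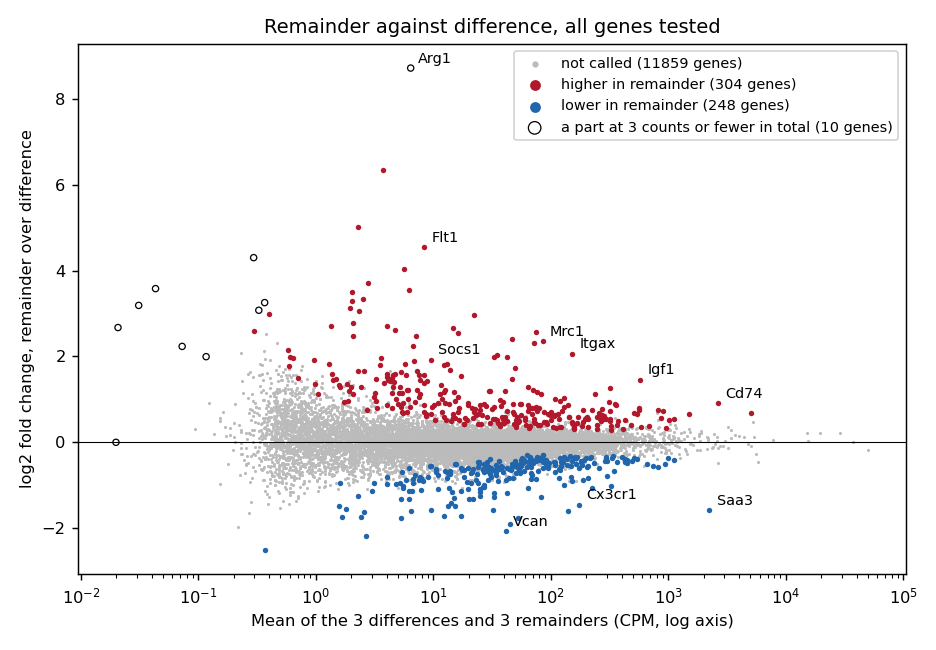
Log2 fold change of remainder over difference (vertical axis) against the mean CPM of the 3 differences and 3 remainders (horizontal log axis), with 1 point for each of the tested genes. Coloured points are genes called higher or lower, grey points were not called, and 10 open points had 3 counts or fewer in total in a part, so their fitted change has no size of its own. Genes called higher reach larger changes than those called lower.

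Where the higher part averaged 8 CPM or more, the 12 called genes with the highest fold in the remainder were led by Arg1, Flt1, Apol7c, St8sia1 and Lad1, and also held Itgb3, Il20rb, Dusp4, Egr2, Cbr2, Slc7a2 and Mrc1. In each of these 12 genes the 3 remainders lay above the 3 differences, which the rule that picked them on these same values favours. The share of all genes tested without overlap is not given here, so nothing is read from this count. Arg1 (ENSMUSG00000019987, mm10 chr10:24915221-24927484), which encodes arginase 1 and splits arginine into ornithine and urea, had 25.0, 5.96 and 7.49 CPM in the remainders of mouse 1, 2 and 3. Its differences held 0, 1 and 0 counts, and untreated and IL-4-treated cells at most 0.13 and 1.66 CPM. The remainder of mouse 1 was the highest of all, and no other group came near the remainders. In total the remainders had 613 counts and the differences 1, a ratio of 613 with a 95% counting interval of 110 to 24260 (adjusted p = 3.7e-05, edgeR). That interval pools the counts of the mice and does not measure the spread between them. The remainders had 402, 97 and 114 counts in mouse 1, 2 and 3.

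Flt1 (ENSMUSG00000029648, chr5:147561604-147726011), a receptor for VEGF-A and placental growth factor, had 19.0, 11.7 and 17.3 CPM in the remainders and 1.03, 0.67 and 0.29 CPM in the differences. It was 23.4-fold higher in the remainder (log2 fold change 4.55, SE 0.25, adjusted p = 2.4e-06). Without Wnt3a it went from 2.38 to 4.62 CPM in untreated cells up to 29.5 to 40.6 CPM with IL-4, so that the differences were the lowest samples of all. Apol7c (ENSMUSG00000044309, chr15:77524852-77533316), a member of the apolipoprotein L family, had 13.4, 12.1 and 6.31 CPM against 0.63, 0.61 and 0.65, a 16.5-fold change. Since 26.2% of the 50-base stretches of its exons recur in further genes, mainly relatives of the same family, its counts are uncertain. St8sia1 (ENSMUSG00000030283, chr6:142821545-142964452), a sialyltransferase that makes the ganglioside GD3, had 13.5, 9.89 and 11.2 CPM in the remainders and 0.80, 1.16 and 1.02 CPM in the differences, a difference of 11.6-fold (adjusted p = 6.1e-05).

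Lad1 (ENSMUSG00000041782, chr1:135818598-135833342), which encodes ladinin, a protein of epithelial anchoring filaments, was the only one of the 12 whose differences all lay above every sample without Wnt3a. It had 54.7, 33.8 and 29.5 CPM in the remainders, 8.18, 5.31 and 2.33 CPM in the differences, and at most 0.13 and 1.14 CPM in untreated and IL-4-treated cells (remainder over difference 7.77-fold, log2 2.96, SE 0.19, adjusted p = 5.7e-06). Itgb3 (ENSMUSG00000020689, chr11:104608000-104670476), the integrin β3 chain, had 23.4, 20.3 and 32.5 CPM against 3.95, 3.24 and 4.87 (6.29-fold, adjusted p = 4.1e-06). Its differences lay below the untreated cells, at 12.7 to 14.2 CPM, and its remainders below or among the IL-4-treated cells, at 29.4 to 38.7 CPM.

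Egr2 (ENSMUSG00000037868, chr10:67535475-67542188), a zinc finger transcription factor induced by IL-4 in macrophages, was the most even of these genes between mice, with 27.9, 27.0 and 28.7 CPM in the remainders and 4.46, 5.01 and 4.94 CPM in the differences (5.82-fold, SE 0.14 on the log2 scale, adjusted p = 2.4e-06). Slc7a2 (ENSMUSG00000031596, chr8:40862396-40922308), a transporter that brings arginine into the cell, had 86.0, 68.1 and 83.5 CPM against 19.6, 14.0 and 11.3 (5.33-fold). Mrc1 (ENSMUSG00000026712, chr2:14229392-14332057), the macrophage mannose receptor, had 133, 153 and 142 CPM against 27.9, 22.5 and 35.0 (5.12-fold, adjusted p = 4.4e-06). For Mrc1 and Egr2 the remainders lay between the untreated and the IL-4-treated cells, whereas for Slc7a2 they lay above both.

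Dusp4 (ENSMUSG00000031530, chr8:34807297-34819894), a phosphatase that switches off MAP kinases, had 142, 108 and 138 CPM in the remainders and 24.1, 20.4 and 20.5 CPM in the differences. Il20rb (ENSMUSG00000044244, chr9:100457719-100486788), a receptor chain for the IL-20 cytokine family, had 9.81, 7.37 and 7.36 CPM against 1.60, 1.16 and 1.24. Cbr2 (ENSMUSG00000025150, chr11:120729489-120732114), a carbonyl reductase, had 15.9, 9.77 and 10.6 CPM against 2.06, 2.20 and 2.33. Il20rb (0.34, adjusted p = 0.74) and Cbr2 (0.84, adjusted p = 0.079) were the only members of the 12 whose log2 change with IL-4 alone was not called. Whether the change of Il20rb differed from that with IL-4 alone depended on which part is taken as the IL-4 culture (adjusted p = 0.089 for the remainder and 0.00071 for the difference).

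**Figure D3:**
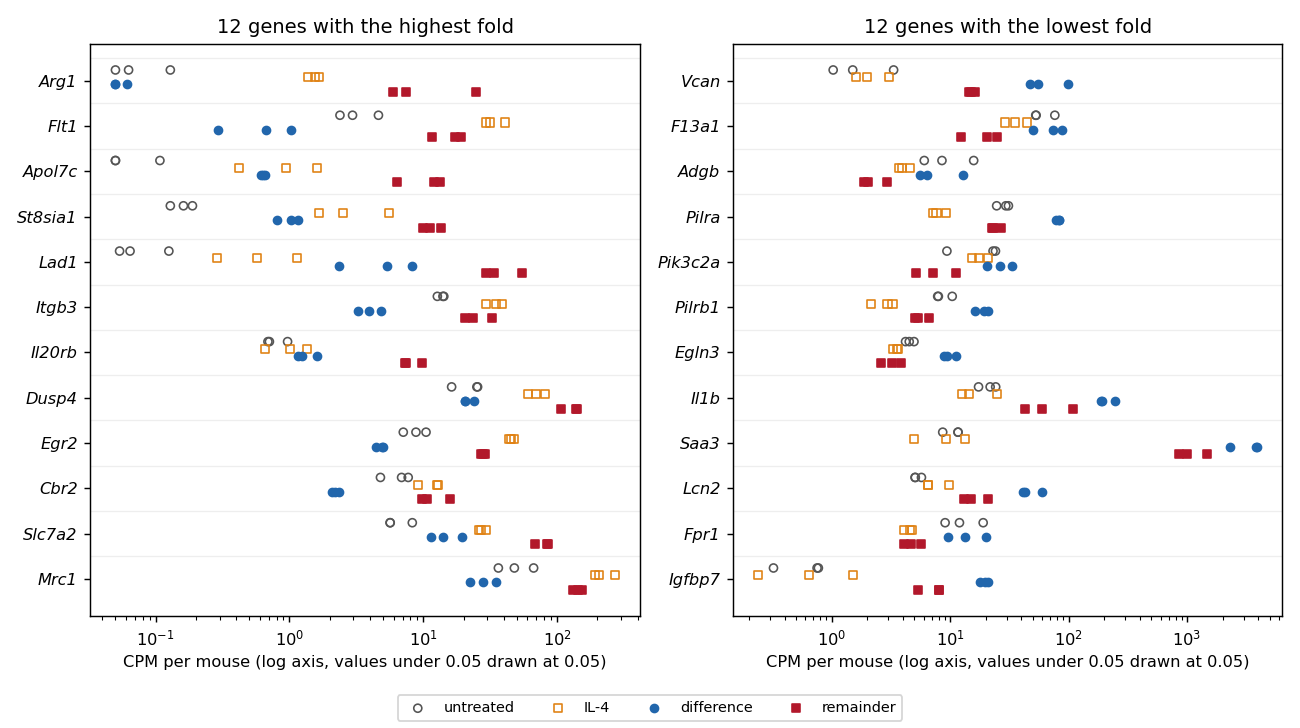
CPM of each mouse (horizontal log axis, values under 0.05 drawn at 0.05) in untreated cells (open circles), IL-4-treated cells (open squares), differences (filled circles) and remainders (filled squares), for the 12 genes of highest fold (left) and of lowest fold (right), 3 points to a group. In every gene shown the 3 remainders and the 3 differences do not overlap, and the genes were picked on these same values.

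The 12 genes of lowest fold, by the same rule, were Vcan, F13a1, Adgb, Pilra, Pik3c2a, Pilrb1, Egln3, Il1b, Saa3, Lcn2, Fpr1 and Igfbp7. The changes of this set reached 4.18-fold. Vcan (ENSMUSG00000021614, chr13:89655312-89742509), which encodes the matrix proteoglycan versican, had 15.0, 16.2 and 14.5 CPM in the remainders and 98.7, 55.6 and 47.0 CPM in the differences (log2 fold change -2.06, SE 0.26, adjusted p = 0.00063). Both parts lay above the cells without Wnt3a, which had 1.03 to 3.33 CPM. F13a1 (ENSMUSG00000039109, chr13:36867178-37050244), the catalytic chain of coagulation factor XIII, had 12.3, 20.5 and 24.8 CPM in the remainders and 50.1, 73.3 and 88.8 CPM in the differences (-1.89, SE 0.12, adjusted p = 5.9e-06).

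Pilra and Pilrb1 are neighbouring genes for an inhibitory and an activating immunoglobulin-type receptor of myeloid cells, and both were lower in the remainder. Pilra (ENSMUSG00000046245, chr5:137821952-137836281) had 23.1, 26.7 and 22.5 CPM in the remainders and 83.4, 82.2 and 78.4 CPM in the differences (3.38-fold lower, adjusted p = 7.7e-06). Pilrb1 (ENSMUSG00000066684, chr5:137852147-137858106) had 5.34, 6.64 and 5.06 CPM against 16.2, 19.3 and 20.8 (3.28-fold lower). The receptors share sequence: 7.3% of the 50-base stretches of Pilra and 31.2% of those of Pilrb1 recur in further genes, so that reads of Pilrb1 in particular are uncertain. Fpr1 (ENSMUSG00000045551, chr17:17876471-17883940), a receptor for bacterial formyl peptides, had 4.66, 4.06 and 5.65 CPM against 20.1, 9.65 and 13.4. Pilra, Pilrb1, Fpr1 and F13a1 were the 4 genes of this set also called lower with IL-4 alone. Their log2 changes there were -1.83, -1.65, -1.53 and -0.75. Adgb was at -1.25 with IL-4 alone and just missed the threshold (adjusted p = 0.055, edgeR).

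A further group of this set encodes inflammatory and acute-phase proteins, and its members were lower in cells without Wnt3a than in either part. Il1b (ENSMUSG00000027398, chr2:129364570-129371139), the cytokine interleukin-1β, had 59.6, 109 and 43.1 CPM in the remainders and 187, 248 and 190 CPM in the differences (-1.59, SE 0.29, adjusted p = 0.0086). Saa3 (ENSMUSG00000040026, chr7:46711998-46715700), serum amyloid A3, had 998, 1475 and 854 CPM against 2311, 3932 and 3826 (-1.58, SE 0.24, adjusted p = 0.0023). Lcn2 (ENSMUSG00000026822, chr2:32384633-32388252), the iron-chelator-binding protein lipocalin 2, had 20.7, 15.1 and 13 CPM against 60.2, 43.2 and 41.4 (-1.57, SE 0.19, adjusted p = 0.00054). For each of these 3 genes the remainders still lay above every untreated and IL-4-treated sample, the highest of which had 24.8 CPM for Il1b, 13.3 for Saa3 and 9.74 for Lcn2.

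Egln3 (ENSMUSG00000035105, chr12:54178981-54203860), an oxygen-dependent prolyl hydroxylase that acts on hypoxia-inducible factors, had 3.85, 3.26 and 2.63 CPM in the remainders and 8.87, 11.1 and 9.38 CPM in the differences (3.01-fold lower, adjusted p = 0.00012). Igfbp7 (ENSMUSG00000036256, chr5:77349240-77408041), a secreted binding protein for insulin-like growth factors, had 5.34, 8.11 and 8.02 CPM against 18, 21.1 and 19.6. Adgb and Pik3c2a, a globin-like protein gene and a lipid kinase gene, were the least certain of the 12, with adjusted p values of 0.010 and 0.015 (log2 -1.77, SE 0.34, and -1.72, SE 0.35).

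Among abundant genes, with at least 100 CPM in the higher part, the lowest p values in the upward direction belonged to Gatm, Itgax, Mrc1, Dusp4 and Igf1. Igf1 (ENSMUSG00000020053, chr10:87858265-87937042), a growth factor, had 853, 846 and 846 CPM in the remainders and 345, 276 and 308 CPM in the differences (2.75-fold, adjusted p = 4.1e-06). Gatm (ENSMUSG00000027199, chr2:122594467-122611303), which makes the creatine precursor from arginine and glycine, had 124, 127 and 110 CPM against 25.9, 23.1 and 23.5 (4.97-fold). Itgax (ENSMUSG00000030789, chr7:128129547-128150657), the integrin chain CD11c, had 240, 232 and 260 CPM against 60.7, 55.1 and 59.9 (4.17-fold), and shares 9.6% of its 50-base stretches with Itgad.

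Downward, the same rule gave Pid1, Cx3cr1, Hp, Tlr2 and Clec4n. Cx3cr1 (ENSMUSG00000052336, chr9:119901616-120069879), the receptor for fractalkine, had 86.3, 79.0 and 118 CPM in the remainders and 244, 265 and 256 CPM in the differences (2.72-fold lower, adjusted p = 0.00012). Tlr2 (ENSMUSG00000027995, chr3:83836272-83841767), a toll-like receptor for bacterial lipoproteins, had 227, 220 and 218 CPM against 382, 397 and 373 (1.73-fold lower, adjusted p = 0.0002). Clec4n, which encodes the fungal receptor dectin-2, was 2.09-fold lower, the acute-phase protein gene Hp 2.41-fold, and Pid1, an adaptor gene linked to insulin signalling, 1.84-fold. In each of these 5 genes the parts did not overlap, which picking them on these same values favours.

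Promoters were read for the 24 genes of highest and lowest fold, from 250 bases before to 50 after each start (RefSeq, GRCm38.p6), to see whether a STAT6 site was present in its letters. The motif searched was TTCNNNNGAA, in which N is any base and which reads the same on both strands. It was present in 6.99% of all 27025 promoters of this length, in 2 of the 8 genes of highest fold with an entry (Apol7c and Cbr2) and in 1 of the 12 of lowest fold (Lcn2). The promoters that hold it are printed in the direction of transcription, with the motif in capitals.
Apol7c, chr15:77533266-77533565, minus strand: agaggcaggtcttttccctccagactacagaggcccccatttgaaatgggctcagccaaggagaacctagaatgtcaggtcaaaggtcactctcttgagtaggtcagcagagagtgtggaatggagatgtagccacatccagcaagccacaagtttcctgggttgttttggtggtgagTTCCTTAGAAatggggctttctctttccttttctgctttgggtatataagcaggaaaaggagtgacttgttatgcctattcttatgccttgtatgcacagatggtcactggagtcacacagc
Cbr2, chr11:120731972-120732271, minus strand: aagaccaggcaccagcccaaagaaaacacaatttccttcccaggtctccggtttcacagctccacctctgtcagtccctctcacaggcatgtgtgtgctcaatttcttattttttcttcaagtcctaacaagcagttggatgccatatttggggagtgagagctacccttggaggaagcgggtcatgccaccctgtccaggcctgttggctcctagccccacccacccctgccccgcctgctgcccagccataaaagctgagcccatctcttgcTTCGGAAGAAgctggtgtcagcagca
Lcn2, chr2:32387690-32387989, minus strand: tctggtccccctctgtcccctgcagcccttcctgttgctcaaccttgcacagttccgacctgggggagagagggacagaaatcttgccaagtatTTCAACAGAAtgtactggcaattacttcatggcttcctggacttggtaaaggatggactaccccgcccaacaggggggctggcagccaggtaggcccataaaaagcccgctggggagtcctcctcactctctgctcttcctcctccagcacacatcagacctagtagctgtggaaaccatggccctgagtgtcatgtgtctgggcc

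The match starts 72 bases before the RefSeq start in Apol7c and 156 bases before it in Lcn2, and 24 bases after it in Cbr2. For Lcn2 and Cbr2 the RefSeq start lies inside the gene span given above, which comes from another annotation. The other STAT spacing (TTCNNNGAA), AP-1 (TGANTCA) and TCF/LEF (ATCAAAG) motifs were in 0 promoters of either set, against 8.47%, 7.93% and 3.72% of all promoters on either strand. The interferon element (GAAANNGAAA) was in 1 of the 8 (Apol7c) and in 3 of the 12 (Pilra, Pilrb1 and Saa3), against 3.49%. With the forward strand alone, Apol7c no longer held it. These counts describe letters in a short window and say nothing of whether a factor bound there. Arg1, Itgb3, Dusp4 and Slc7a2 had no entry and are named only.

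Genes of the IL-4 and STAT6 response were largely higher in the remainder. Of 45 tested members of this list, 31 were called higher and 1 lower, F13a1 (71.1% called, against 4.48% of all genes tested). Without mouse 3, 15 were called higher and 1 lower, and without any other mouse or part 25 to 31 were higher. Their median log2 change was 1.43, and it was 1.38 with the 4 members of 3 counts or fewer in a part set at that floor. Since this list was chosen with earlier results of these data known, it is not independent evidence of a direction. The summed level of the list's 45 tested members was 2061 to 2112 CPM in the differences and 3214 to 3415 CPM in the remainders. The latter range is close to that of IL-4-treated cells, 3004 to 3414 CPM, and above that of untreated cells, 1777 to 1971 CPM.

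By role, the lectin and scavenger-type receptors of this list that were called higher were Mrc1, Mgl2, Clec7a and Clec10a. Mgl2, a galactose-type lectin, had 6.02, 3.13 and 4.60 CPM in the remainders and 0.40, 0.18 and 0.80 CPM in the differences, a 10.1-fold change. Clec7a, the β-glucan receptor dectin-1, had 275, 412 and 288 CPM against 149, 149 and 149, and was 2.17-fold higher. Clec10a was 1.86-fold higher and was the only called member of the list whose parts overlapped, and 10.6% of its 50-base stretches occur in Mgl2. The inhibitory antibody receptor gene Fcgr2b was 1.93-fold higher, and shares 7.4% of its stretches mainly with Fcgr3.

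Chemokine genes of the list that were called higher had low levels in part. Ccl22, a ligand of CCR4, had 83.6, 37.7 and 33.4 CPM in the remainders and 26.4, 8.67 and 6.4 CPM in the differences (4-fold, adjusted p = 0.0012), with mouse 1 highest in both parts. Ccl17, the other CCR4 ligand, had 4.72, 0.92 and 1.45 CPM against 0.74, 0.24 and 0.07 (6.54-fold, adjusted p = 0.0087). The ranges of both genes nearly touched, since their mouse 1 differences lay just under the lowest remainders. Ccl7 and Ccl24, which attract monocytes and eosinophils, were 8.40-fold and 3.89-fold higher from levels of at most 0.97 CPM in the differences. Ccl17 and Ccl24 met the filter of 10 counts in 3 libraries only through the remainders, so the filter favoured an upward call. Both count among the list's genes called higher.

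Transcription factor genes of the list that were called higher included Irf4 and Batf3. Irf4 was 2.98-fold higher, Batf3 3.19-fold, Myc 2.81-fold and Pparg, a nuclear receptor of lipid metabolism, 1.83-fold. Atp6v0d2, a subunit of the vacuolar proton pump, had 52.5, 91.8 and 57.6 CPM in the remainders and 17.1, 18.3 and 14.8 CPM in the differences (3.96-fold). Rnase2a, an eosinophil-associated ribonuclease gene, had 7.02, 1.91 and 4.34 CPM against 0, 0.12 and 0.29, and its remainders were far below the 36.7 to 84.7 CPM of cells treated with IL-4 alone. Cdh1, which encodes E-cadherin, had 27 counts in the remainders and 1 in the differences, a ratio of 27.0 with a 95% counting interval of 4.45 to 1106. This interval too leaves out the spread between mice.

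Pdcd1lg2 and Cd274, the ligands of the inhibitory receptor PD-1, were 8.71-fold and 1.58-fold higher. Tgm2, a protein cross-linking enzyme often used as a marker of IL-4-treated macrophages, had 516, 353 and 534 CPM in the remainders and 245, 253 and 269 CPM in the differences (1.82-fold, adjusted p = 0.0052). Its change with IL-4 alone was 0.21 on the log2 scale (adjusted p = 0.60). On the other strand, 21.8% of its exon bases overlap another gene, and the strand setting of the counting is not given in the sources used here. Fn1, Il27ra, Matk, Ptgs1, Socs1, Cish and Ciita were also called higher, by 1.66-fold (Ciita) to 3.79-fold (Socs1).

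Some hallmark genes of the IL-4 response did not pass the test between the parts. Retnla, which encodes the secreted protein RELMα, had 1 count in the differences and 1 in the remainders in total, whereas cells given IL-4 alone had 781, 535 and 618 counts. No fold is given for it, since both parts were at the floor of 3 counts. Chil3, which encodes the chitinase-like protein Ym1, had a mean of 15.1 CPM in the differences and 19.6 CPM in the remainders (log2 0.38, adjusted p = 0.13), and its change with IL-4 alone was 0.97 (adjusted p = 0.00095). Klf4 (0.33, adjusted p = 0.31) and Ppargc1b (0.49, adjusted p = 0.10) were called with IL-4 alone and not between the parts. The receptor gene Il4ra was at a mean of 224 CPM in the differences and 189 CPM in the remainders (-0.25, adjusted p = 0.22). For Chil3, Klf4, Ppargc1b and Il4ra the IL-4 contrast with Wnt3a was not shown to differ from that without under both assignments. For Retnla that test passed with the difference as the IL-4 culture (adjusted p = 0.041, edgeR) and not with the remainder (adjusted p = 0.21). Whichever part is the IL-4 culture, it held at most 1 Retnla count in any mouse.

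**Figure D4:**
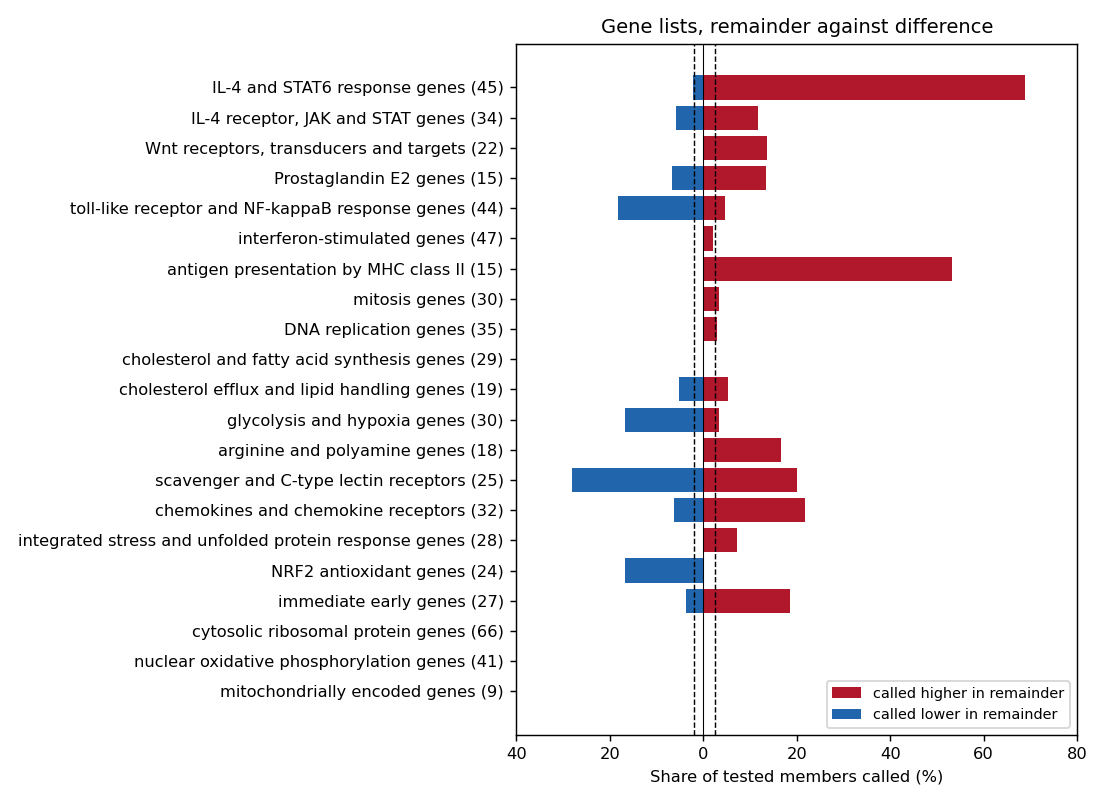
Share of the tested members of each gene list (number tested in brackets) called higher in the remainder (bars to the right) and called lower (bars to the left), in percent. The dashed lines mark the shares over all genes tested, 2.48% higher and 2% lower, and the bar of the IL-4 and STAT6 response genes, 31 of 45 called higher, is the longest.

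Of 34 tested IL-4 receptor, JAK and STAT genes, 4 were called higher and 2 lower (17.6%, against 4.48% of all genes tested), and the median log2 change was -0.02. Without mouse 3, 1 was higher and 0 lower, without 1 part of a mouse 2 to 6 were higher and 1 to 3 lower, and over all settings 0 to 7 were lower. The genes called higher were Socs1 and Cish, which encode feedback inhibitors of cytokine signalling, Stat5a, and the adaptor gene Irs2. Socs1 had 20.5, 11.3 and 13.7 CPM in the remainders and 5.49, 2.99 and 3.49 CPM in the differences (3.79-fold, adjusted p = 3.7e-05). Il13ra1, a chain of the second type of IL-4 receptor, was 2.10-fold lower, with 10.5, 15.4 and 11.9 CPM against 29.7, 25.4 and 24.7. Ptprc, which encodes the leukocyte phosphatase CD45, was called lower too (-1.02, SE 0.26), but its adjusted p of 0.048 was just under the threshold.

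Stat6 had 334, 313 and 322 CPM in the remainders and 328, 350 and 332 CPM in the differences (-0.06, SE 0.08, adjusted p = 0.77). For Stat3 the values were 232, 233 and 239 CPM against 257, 260 and 265, with a log2 change of -0.15 (SE 0.08, adjusted p = 0.37) although the parts did not overlap. Socs3, a STAT3 target, was at -0.28 (SE 0.15, adjusted p = 0.37). Il6st and Il10ra, receptor chains for IL-6 and IL-10 that signal to STAT3, were at 0.29 (SE 0.08, adjusted p = 0.085) and -0.19 (SE 0.08, adjusted p = 0.24). None of these 5 genes passed the test in the main fit.

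Of 22 tested Wnt receptors, transducers and targets, 3 were called higher, namely Ccnd1, Myc and Ctnnb1, and 0 lower. That is 13.6%, against 4.48% of all genes tested. The median was -0.01, and without mouse 3 only 1 was called. Ccnd1, the gene of cyclin D1, had 9.01, 7.07 and 10.1 CPM in the remainders and 2.75, 3.11 and 2.98 CPM in the differences (2.95-fold, adjusted p = 0.00042). Both parts lay below untreated cells, which had 22.0 to 32.3 CPM. Ctnnb1, which encodes β-catenin, had 764, 798 and 775 CPM against 606, 616 and 566 (1.31-fold, adjusted p = 0.024). All 3 were also called higher with IL-4 alone, and 23.4% and 14.6% of the exon bases of Ccnd1 and Ctnnb1 overlap a gene on the other strand. Axin2 had too few counts for the test, with 11, 9 and 13 in the remainders and 1, 1 and 5 in the differences, and Lef1 had 0 in all 6 parts.

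Of 15 tested prostaglandin genes, 2 were called higher and 1 lower (20%, against 4.48% of all genes tested). Without mouse 3 these were 1 and 0. Ptgs1, the constitutive cyclooxygenase, had 71.9, 67.0 and 86.9 CPM in the remainders and 17.6, 19.8 and 32.1 CPM in the differences (3.31-fold, adjusted p = 3.8e-05), and Tbxas1, which makes thromboxane, was 1.37-fold higher. Hpgd, which inactivates prostaglandin E2, was 1.91-fold lower (8.38, 19.8 and 15.3 CPM against 20.3, 32.4 and 30.0, adjusted p = 0.039). The inducible enzymes Ptgs2 (0.46, SE 0.25, adjusted p = 0.39) and Ptges (-0.48, SE 0.15, adjusted p = 0.11) did not pass.

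Of 44 toll-like receptor and NF-κB response genes tested, 8 were lower (Il1b, Saa3, Lcn2, Slpi, Nfkbiz, Marco, Tlr2 and Cd14) and 2 higher (Cd40 and Il1rn, the latter an antagonist of interleukin-1), with a median of -0.06. The called share was 22.7%, against 4.48% of all genes tested. Without mouse 3, 4 were lower and 0 higher. Summed over the 44 genes tested, the differences had 9232 to 10839 CPM and the remainders 6029 to 7657 CPM. Slpi, a secreted protease inhibitor, had 10.2, 11.9 and 14.5 CPM in the remainders and 20.5, 29.1 and 43.4 CPM in the differences (2.47-fold lower). Of 47 interferon-stimulated genes tested, 1 was called (2.13%), Gbp2 (1.43-fold higher), and the list's median was 0.02. That share is below the one over all genes tested.

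Antigen presentation genes of MHC class II were the other list with over 50% of its members called. Of 15 tested, 8 were higher and 0 lower (53.3%, against 4.48% of all genes tested), with a median of 0.53. Without mouse 3, 2 of the list were called, and without another mouse or part 6 to 9 of the list were. Cd74, the invariant chain and an abundant transcript, had 3691, 3698 and 3102 CPM in the remainders and 1569, 2076 and 1890 CPM in the differences (1.89-fold, adjusted p = 0.0010). H2-Eb1, an MHC class II β chain, was 1.70-fold higher, and Ciita, the master activator of these genes, 1.66-fold. Cd83 and Cd40, surface proteins of activated antigen-presenting cells, were 2.28-fold and 1.82-fold higher, and neither was called with IL-4 alone (0.16 and 0.04 on the log2 scale).

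Chemokine and chemokine receptor genes had 7 of 32 tested called higher and 2 lower (28.1%, against 4.48% of all genes tested). Without mouse 3 there was 1 in each direction. Besides those above, Ccl8 (3.35, 2.83 and 5.12 CPM against 0.46, 0.24 and 0.22, 11.4-fold), Ccl12 (5.6-fold) and the homing receptor gene Ccr7 were higher. Like Ccl17 and Ccl24, Ccl8 and Ccl12 had enough counts for the test only through the remainders, which favoured an upward call. The receptor genes Cx3cr1 and Cxcr3 were lower, Cxcr3 with 4.35, 4.12 and 5.72 CPM against 7.55, 8.18 and 9.96 (1.81-fold lower, adjusted p = 0.010). Ccl2, a main attractant of monocytes, had 10.3, 4.12 and 4.99 CPM against 4.18, 1.40 and 0.58 and did not pass (log2 1.66, SE 0.45, adjusted p = 0.064). Receptors of the scavenger and C-type lectin list split, with 5 of 25 tested higher (Mrc1, Mgl2, Clec7a, Clec10a and the fatty acid receptor Cd36) and 7 lower (48% called). Without mouse 3 these were 2 and 1, and the 7 were 3 to 5 without mouse 1 or without 1 part of any mouse other than the remainder of mouse 2. Those lower included Clec5a (2.36-fold), Clec4n, Cd163 and Marco.

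Calls in metabolic lists made up 20% of the glycolysis and hypoxia genes and 16.7% each of the NRF2 and the arginine and polyamine genes, against 4.48% of all genes tested. Of 30 glycolysis and hypoxia genes tested, 5 were lower and 1 higher, with a median of -0.17. With the GC trends removed 11 were lower, and 2 were lower without mouse 3 or without the difference of any 1 mouse. Among the lower ones Pfkfb3, which makes the activator of glycolysis fructose 2,6-bisphosphate, had 76.1, 90.2 and 81.7 CPM in the remainders and 127, 144 and 128 CPM in the differences (1.61-fold, adjusted p = 0.00062). Pdk1, which blocks entry of pyruvate into mitochondria, was 1.46-fold lower and Ndrg1 1.48-fold. Of 24 NRF2 antioxidant genes, 4 were lower and 0 higher (Gsta3, Gsr, Cat and Gclm, by 1.35-fold to 1.73-fold), but 0 of either without mouse 3. Arginine and polyamine genes had 3 of 18 higher and 0 lower: Arg1, Slc7a2 and Sat1, the enzyme that starts polyamine breakdown (466, 475 and 425 CPM against 260, 220 and 253).

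Immediate early genes had 5 of 27 higher (Egr2, Nr4a3, Atf3, Zfp36 and Ier3) and 1 lower (Btg2). That is 22.2%, against 4.48% of all genes tested. Without mouse 3, 1 was higher and 0 were lower. Without 1 part of a mouse other than the remainder of mouse 2, 3 were higher and 0 lower. In the integrated stress and unfolded protein response list 2 of 28 were higher (7.14%), Atf3 (1.72-fold) and Pdia4 (1.30-fold), and 0 without mouse 3. Cholesterol efflux and lipid handling genes had 1 of 19 higher (Cd36, 1.62-fold) and 1 lower (Mylip, 1.34-fold), 10.5% of those tested. Mitosis genes had 1 of 30 called (3.33%), Cenpa, and DNA replication genes 1 of 35 (2.86%), Tk1, both higher. Both shares lie below that of all genes tested. In the lists of cholesterol and fatty acid synthesis (29 tested), cytosolic ribosomal proteins (66), nuclear oxidative phosphorylation (41) and mitochondrially encoded genes (9), 0 members were called by edgeR. The median of the mitochondrially encoded genes was 0.30, and 6 of them were called higher once the GC trends were removed. Transforming growth factor genes gave 0.07 for Tgfb1 (SE 0.10, adjusted p = 0.78) and -0.53 for Tgfb3 (SE 0.43, adjusted p = 0.57), Tgfb2 had too few counts, and Met, the receptor for hepatocyte growth factor, was at -0.27 (SE 0.20, adjusted p = 0.52).

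Set beside the response to IL-4 in cells without Wnt3a, which shares no library with this comparison, 391 genes were called there (3.15%), 267 higher (2.15%) and 124 lower (0.998%). Of the genes called in either comparison 212 were called in both, which is 38.1% of those that differed between remainder and difference and 54.2% of those changed by IL-4 alone. In 153 of the 212 both changes were upward and in 56 both downward. The remaining 3 went opposite ways, 2 of them higher in the remainder. Of the 12 genes of highest fold, 10 were also called higher with IL-4 alone, and of the 12 of lowest fold 4 were called lower with it. The other 8 of the latter (Vcan, Adgb, Pik3c2a, Egln3, Il1b, Saa3, Lcn2 and Igfbp7) were not called with IL-4 alone.

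**Figure D5:**
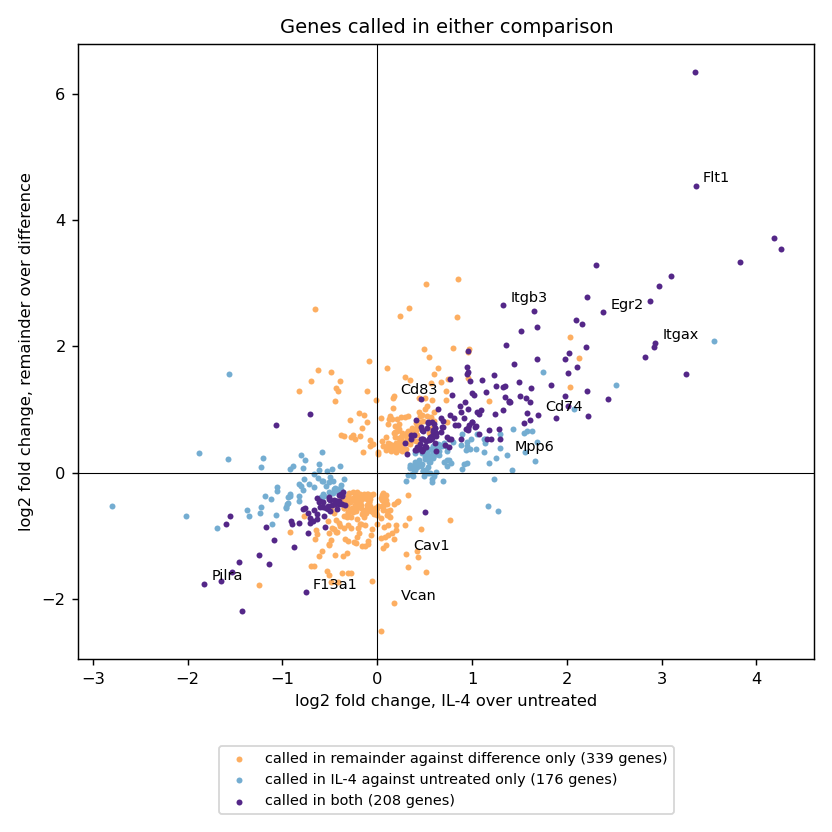
Log2 fold change of remainder over difference (vertical axis) against that of IL-4 over untreated cells (horizontal axis), for the genes called in either comparison. Genes with 3 counts or fewer in total in any of the 4 groups (12 genes) are left out, which leaves 208 called in both, 339 in remainder against difference only and 176 in IL-4 against untreated only. Points called in both lie in the upper right and lower left, apart from a few genes.

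Whether IL-4 acted differently with Wnt3a than without can depend on which part is which, so the contrast was tested under both assignments. It was called in 11 genes where the remainder was taken as the IL-4 culture and in 854 where the difference was, and in 5 under both (0.0403%): F13a1, Cd83, Cav1, Mpp6 and Txnip. Of these, Cav1, Mpp6 and Txnip were named after their values were seen. Cav1 (chr6:17306335-17341452), which encodes the membrane protein caveolin 1, had 20.9, 19.7 and 16.8 CPM in the remainders and 52.9, 45.4 and 40.8 CPM in the differences, and was at 0.30 with IL-4 alone (adjusted p = 0.24). Cd83 (chr13:43784775-43803132) had 38.4, 44.7 and 40.1 CPM against 14.1, 19.6 and 20.8. In untreated and IL-4-treated cells Cd83 was at 100 to 122 CPM, above both parts.

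Mpp6 (chr6:50110241-50198939), a scaffold protein gene, and Txnip (chr3:96557957-96561883), an inhibitor of thioredoxin, differed from these. Both rose with IL-4 alone, Mpp6 from 17.8 to 22.3 up to 49.9 to 52.1 CPM and Txnip from 337 to 355 up to 504 to 535 CPM. Between the parts neither was called (0.28, adjusted p = 0.24, and -0.10, adjusted p = 0.54). Their contrast with Wnt3a minus that without was negative under both assignments. With the remainder as the IL-4 culture it was -1.09 for Mpp6 and -0.67 for Txnip, and with the difference -1.66 and -0.48. The rise with IL-4 was thus smaller with Wnt3a in these fits, whichever part is the IL-4 culture. Without mouse 1 or without mouse 3, 0 genes were called under both assignments, without mouse 2 there were 23, and without the block 8, so the number depends on which mice enter the fit.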

How the data were processed

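Raw gene counts of 12 libraries of mouse bone marrow-derived macrophages were deposited by the authors as whole numbers per Ensembl gene. Per the submitters' processing notes and the study's methods, the tools were FastQC 0.11.7, Trimmomatic 0.36, STAR 2.6.0, SAMtools 1.9, HTSeq 0.11.1 and DESeq2 1.24.0, and the build was mm10. The strand setting of the counting is not given in the sources used here. A read shared between similar genes, or between genes on opposite strands, can move these counts.

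Differences and remainders were computed per mouse from the deposited counts, and with the untreated and IL-4 libraries formed 12 libraries of 13342492 to 17453377 counts. The 12421 genes that reached 10 counts in 3 or more libraries were fitted over all 4 groups with edgeR 4.0.16 in R 4.3.3, with TMM scaling, the mouse as a block and the quasi-likelihood test, and p values were adjusted by Benjamini-Hochberg over all genes tested. The 9027 other genes with a count in a part were not tested. CPM values use the library totals of the tested genes, multiplied by the TMM scaling factors. Pairing follows the labels, since samples of 1 number come from the same mouse. Deviations from group means correlated between -0.42 and 0.45 over the 18 same-mouse pairs, with 6 over 0.1, and between -0.05 and 0.11 for difference with remainder.

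The comparison, the gene lists and the tests were chosen with earlier results of these data known. Genes were named by a rule: the 12 highest and 12 lowest called folds where the higher part averaged 8 CPM or more, genes the study names in cultured macrophages, the called members of the IL-4, receptor, Wnt and prostaglandin lists, up to 4 called members of other lists, genes called under both assignments, and in each direction the 5 lowest p values where it averaged 100 CPM or more. Calls that a count states are also named, except that results of some marker genes are not reported here. On simulated counts of the remainder against difference comparison (12421 genes, 200 changed), 179 changed genes were recovered (89.5%). Of 194 calls 15 were false, and an unchanged comparison gave 0 calls. Recovery was 72.1% at the smallest change set and 100% at the largest. Changed genes were drawn from well-counted genes alone, and no mouse effect or GC trend was simulated. These rates therefore do not describe genes of few counts, smaller changes or the GC trends of these data. Alternatives were DESeq2 1.42.0, other scalings and filters, no block, the 6 libraries alone, leaving out mice or libraries, and offsets for GC content and length. Gene coordinates and stretches of 50 bases shared between genes come from the annotation of the same build, and promoters from RefSeq.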

Additional observations from a re-analysis of the deposited data

Results flagged for a closer look

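F13a1 and Cd83 were singled out among the named genes because the IL-4 contrast with Wnt3a differed from that without Wnt3a whichever part is taken as the IL-4 culture. For F13a1 the contrast with Wnt3a minus that without was -1.14 on the log2 scale with the remainder as the IL-4 culture (adjusted p = 0.038, edgeR) and 2.64 with the difference (adjusted p = 2.3e-06). For Cd83 the values were 1.02 (adjusted p = 0.038) and -1.35 (adjusted p = 0.00018). The signs turn with the assignment, so no direction is given, and 0 genes were called under both assignments without mouse 1 or without mouse 3.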

How the results depend on the processing

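Of 556 genes called between remainder and difference, edgeR with no replicate block called 652, and 520 of them were shared. The 6 libraries alone with the replicate block gave 341, all genes with at least 1 count 1316, an adjusted p under 0.01 255 and a log2 change of at least 1 169. The deposited Wnt3a and Wnt3a+IL4 columns, taken as they stand, gave 0 calls and 52 genes at an unadjusted p under 0.05. Offsets added after seeing the data gave 1040 (GC) and 1189 (GC and length). Leaving out a mouse gave 91 to 1216 calls, and leaving out 1 part of a mouse 233 to 1693. For IL-4 alone, 391 calls became 64 to 353 without a mouse. The 5 genes called under both assignments became 8 with no replicate block and 0 to 23 without a mouse. The causes were not tested.

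Of the named genes, the 91 called kept their direction under every setting run, and 2 that were not called changed sign. Among the named genes not called, 5 came out stronger with the GC offset and 6 with the GC and length offset. Their lack of a call is therefore tied to the main fit. Leaving out a mouse or a part put Stat6 between -0.103 and 0.010 and Tgfb1 between -0.007 and 0.153, and Tgfb1 was at -0.028 with the GC offset and -0.045 with the GC and length offset. Depth limits genes of few counts, such as Axin2 and Retnla.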
